A study of Mus musculus with 9 samples.

Results

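Trex1 and the genes that overlap it or lie next to it, Atrip and Shisa5, were followed across 9 mouse kidney libraries. These are 3 of the 54532 genes counted. They were chosen by their position on chromosome 9 and by measured values of these libraries, namely that Trex1 held no counts and that Atrip was higher in knockouts than in wild type. The differences of the members from wild type are therefore given as a description, with no test. Atrip and Shisa5 passed the filter on low counts and Trex1 did not.

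PolyA RNA of kidneys was sequenced as read pairs of 150 bases from C57BL/6J mice in 3 groups of 3 libraries. The groups are wild type (WT) and 2 kinds of Trex1-/- mice, which received either PBS or SN-011, an antagonist of STING, over 2 weeks. Per the study's methods, Trex1-/- mice were bred from heterozygous parents and dosed daily from 1 month of age with SN-011 at 10 mg/kg or with vehicle (1% Tween 80 in PBS), while WT mice were purchased at 4 to 8 weeks of age. Sex, the stretch removed from the Trex1 locus and any injection of WT mice were not given in the sources used here, nor was a statement that each library came from a separate mouse. P-values measure the spread between these libraries.

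TREX1 is the main exonuclease that degrades DNA in the cytosol of mammalian cells. Without it, self DNA activates the sensor cGAS, whose product activates STING, and type I interferon is made. Loss of TREX1 causes Aicardi-Goutieres syndrome in humans and an inflammatory disease in mice. ATRIP is the partner of the checkpoint kinase ATR, which it brings to single-stranded DNA coated by replication protein A. SHISA5, also called Scotin, is a membrane protein of the endoplasmic reticulum and nuclear envelope, known as a target of p53 and as an interferon-inducible gene.

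The exons of Trex1 lay wholly inside those of Atrip. In the GENCODE vM21 annotation of GRCm38, Trex1 (ENSMUSG00000049734) spans chr9:109057933-109059734 and Atrip (ENSMUSG00000025646) spans chr9:109057933-109074124, both on the minus strand and with the same last base. All 1147 exonic bases of Trex1 (100%) were also annotated as Atrip exon. Of the 7152 exonic bases of Atrip, 6005 (84.0%) were outside Trex1 exons, 655 of them within Trex1 introns and 5350 upstream of Trex1. Of 9 Atrip transcripts, 3 hold bases of Trex1 exons, namely Atrip-202, Atrip-204, annotated for nonsense-mediated decay, and Atrip-205, with a retained intron. The protein-coding transcript Atrip-201 ends upstream of both Trex1 transcripts. Shisa5 (ENSMUSG00000025647; chr9:109038565-109057777, plus strand) shares no exonic base with either gene, and 155 bases separate its 3′ end from that of Trex1.

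**Figure D1:**
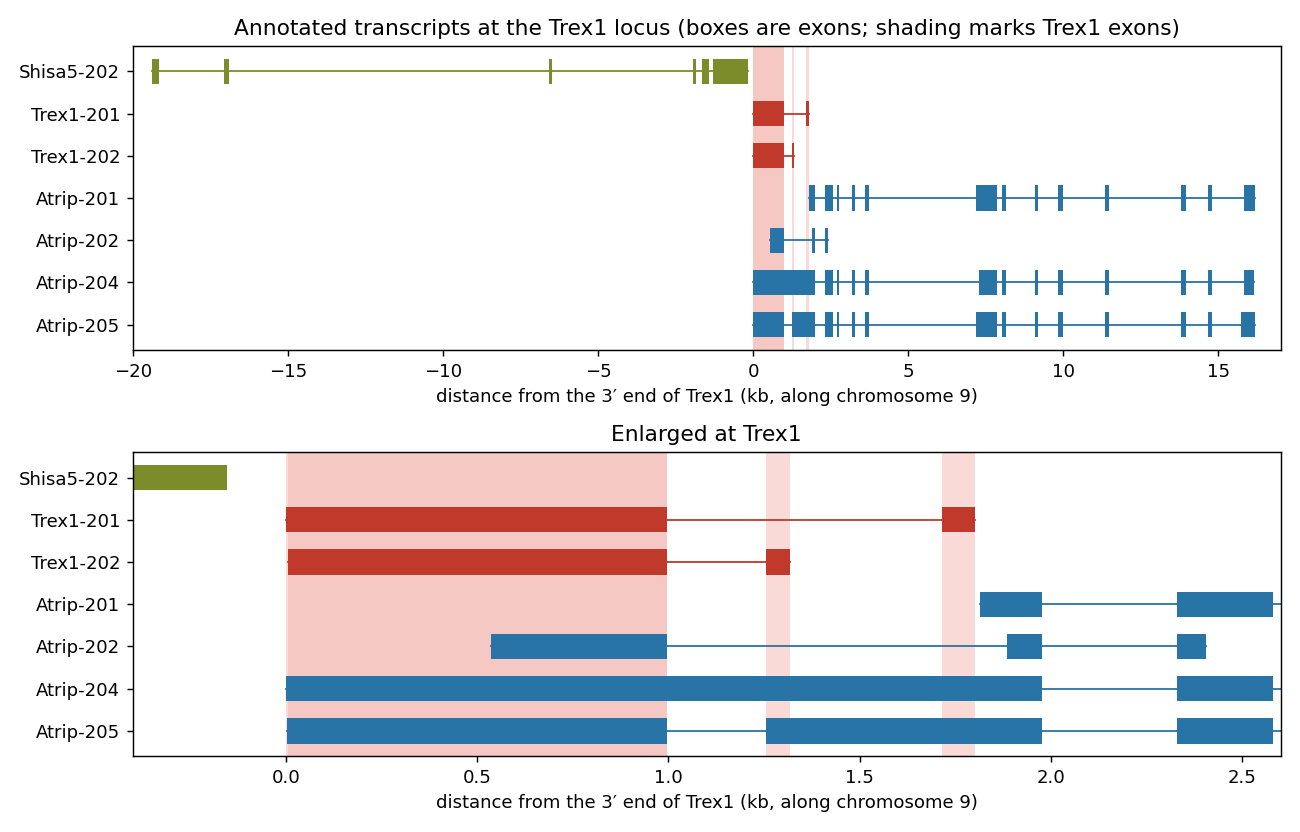
Annotated transcripts of Shisa5, Trex1 and Atrip, with boxes for exons, lines for introns and shading over Trex1 exons, plotted by distance in kb from the 3′ end of Trex1; the lower panel enlarges Trex1. Every shaded base is also covered by an Atrip box, and Shisa5 ends 155 bases short of Trex1.

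The sharing can be read in the sequences. The junctions into the coding exon of Trex1 are shown on the minus strand of GRCm38, 5′ to 3′, because they tell which transcripts enter it. Lower case is the last 15 bases of the exon before, and capitals are the first 15 bases of the coding exon, which starts at base 109058928 of chromosome 9. The exon before ends at base 109059647 in Trex1-201, 109059189 in Trex1-202 and Atrip-205, and 109059818 in Atrip-202.
Trex1-201: gagatggcccccatgGTTCAGCATGGGCTC
Trex1-202: gctgcctgcttctcgGTTCAGCATGGGCTC
Atrip-202: gcatccagccacaagGTTCAGCATGGGCTC
Atrip-205: gctgcctgcttctcgGTTCAGCATGGGCTC
The Trex1-202 and Atrip-205 junctions are identical, and Atrip-202 enters the same exon from an exon of its own. Past the junction nothing separates the genes. The first 60 bases of the Trex1 coding sequence (chr9:109058862-109058921, minus strand; the start codon in capitals) were found in 5 transcripts, Trex1-201, Trex1-202, Atrip-202, Atrip-204 and Atrip-205.
Trex1 coding start: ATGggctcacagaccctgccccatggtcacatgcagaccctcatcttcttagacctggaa

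The libraries held 16118813 to 21928965 assigned pairs, with reads for 23180 to 24657 genes each. Within groups they differed by 7.76 to 76.0 times the counting variance across genes, so none was a copy of another. SN-011 replicate 2 stood apart (76.0 and 66.8 times against its fellows, which differed from each other by 15.5 times), and so did WT replicate 3 (31.7 and 31.5, against 7.76). The groups were unequal in sex-linked reads. Y-linked transcripts (Ddx3y, Kdm5d, Eif2s3y and Uty) were above 10 CPM in all 3 PBS libraries and in the same SN-011 replicate 2 and WT replicate 3, and at 0.377 CPM or less in the other 4. No PBS library was low in Y-linked reads, so the low libraries allow only WT and SN-011 to be compared. Values without the libraries that stand apart, and with a term for Y-linked reads, are given for Atrip and Shisa5 and for some results of other genes.

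Trex1 was listed at 0 counts in all 9 libraries, the WT libraries included. A count of 0 allows up to 3 counts, or 0.137 to 0.186 CPM (counts scaled to the size of the library), for counting error alone. The authors counted uniquely mapped pairs with featureCounts, which by default does not assign a pair that overlaps exons of more than 1 gene. The counts therefore do not check the genotype, which rests on the labels, and no level of Trex1 can be given for any group.

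A count of 0 was usual for genes placed as Trex1 is. Among 741 genes with every exonic base inside exons of same-strand genes, 711 (96.0%) were listed at 0 in all 9 libraries, and 3 reached 10 reads in total. Genes whose bases were all shared with genes of the opposite strand alone were listed at 0 in 449 of 453 cases (99.1%). Genes with no shared base were at 0 in 20679 of 42846 cases (48.3%). Restricted to protein-coding genes, the shares were 82.7% (110 of 133), 97.1% (34 of 35) and 23.9% (3712 of 15538). With a sharing of at least 90% of bases, the shares at 0 among protein-coding genes were lower, at 71.3% (144 of 202) for the same strand and 82.1% (46 of 56) for the opposite strand. The study names a strand-specific preparation, while the strand setting of the counting was not given in the sources used here. Whether the counts keep the strands apart was not tested.

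**Figure D2:**
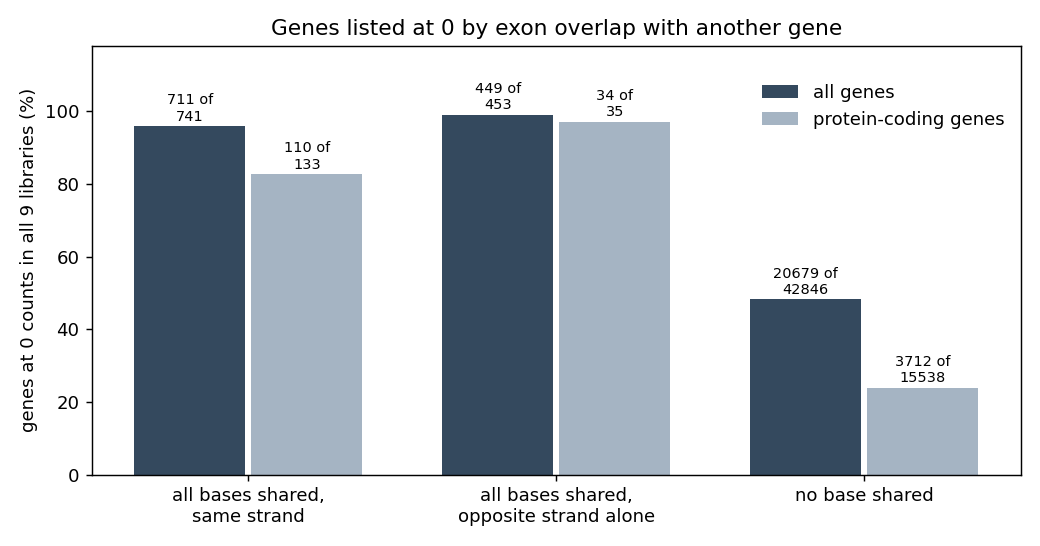
Percent of genes at 0 counts in all 9 libraries by whether their exonic bases are all shared with same-strand genes, all shared with opposite-strand genes alone, or not shared, for all genes and for protein-coding genes; numbers over the bars are genes at 0 of genes in the class. The bars of both shared classes stand at 82.7% or more and those of unshared genes at 48.3% or less.

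Atrip was higher in both knockout groups than in WT. Its counts were 341, 340 and 249 in WT, 766, 830 and 648 with PBS, and 655, 648 and 626 with SN-011. Scaled by library size with TMM factors, these are 16.1, 15.4 and 14.4 CPM in WT, 46.6, 48.5 and 40.3 CPM with PBS, and 37.1, 37.6 and 37.2 CPM with SN-011. Every knockout library lay above every WT library, and every PBS library lay above every SN-011 library. The group means were 15.3 ± 0.839, 45.1 ± 4.30 and 37.3 ± 0.244 CPM (SD, n = 3 each). In whole kidney, a change in the number of cells of a type and a change in RNA per cell cannot be told apart.

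The Atrip level with PBS was 2.95-fold that of WT, a difference of 1.56 on the log2 scale (SE 0.0962). With SN-011 it was 2.44-fold that of WT, 1.29 on the log2 scale (SE 0.0959). Groups did not overlap in the higher direction for 13.1% of the 16646 genes tested in PBS against WT and for 11.8% in SN-011 against WT. The median log2 fold change of all tested genes was 0.0028 and -0.0034 in these comparisons. As Atrip was chosen for its values against WT, nothing is read from its place among these genes. By default counting, its reads come from its 6005 unshared bases, on which the level was 2.54 ± 0.140 CPM per kb in WT, 7.52 ± 0.716 with PBS and 6.21 ± 0.0407 with SN-011. These bases include the 655 within Trex1 introns, and the counts do not tell reads there from reads further upstream. Since the stretch removed from the Trex1 locus was not given, whether the knockouts still hold all of these bases is not known here, and their values per kb assume that they do.

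**Figure D3:**
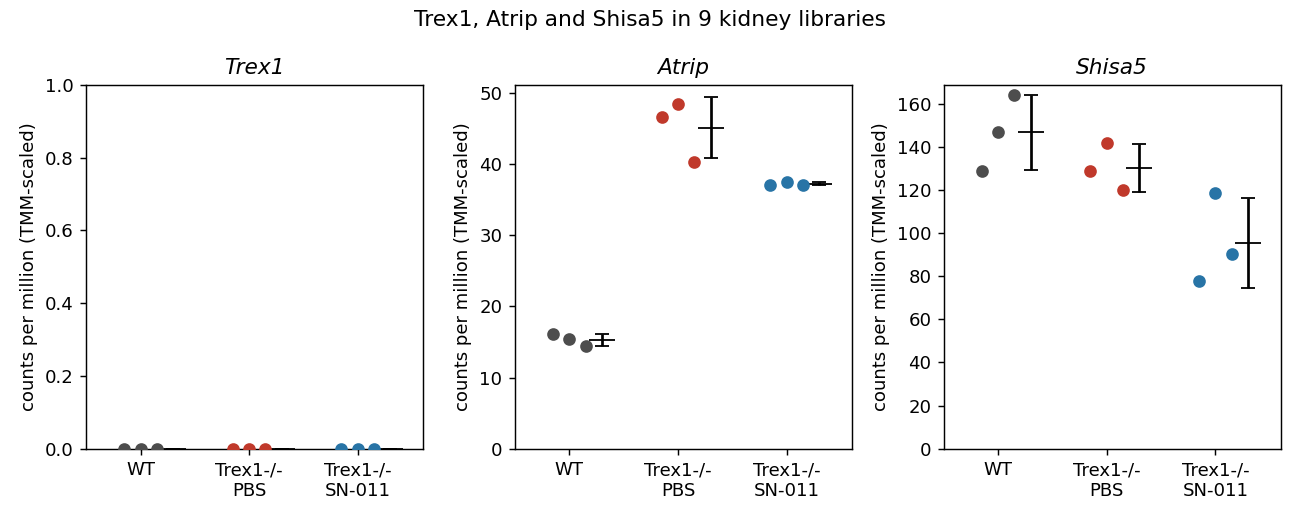
CPM of Trex1, Atrip and Shisa5 in each of the 9 libraries (points, replicates 1 to 3 from left to right in each group), with the group mean and SD beside them; each panel has its own axis from 0. Trex1 is at 0 throughout, the Atrip groups are separate from one another, and for Shisa5 WT overlaps PBS while SN-011 lies below both.

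In SN-011 against PBS, Atrip did not pass the test. This comparison is not free of the choice of Atrip, which used the high values of the PBS libraries. Such a choice can make the difference more negative, and the interval, p-values and lack of overlap below carry this limit. The difference was -0.28 on the log2 scale (SE 0.0930, 95% interval -0.48 to -0.07), with an unadjusted p of 0.0137 and an edgeR adjusted p of 0.311. The interval leaves room for a fall of close to 0.48 on the log2 scale and for almost none. The PBS and SN-011 groups did not overlap for Atrip, as for 8.41% of all genes in the lower direction. Of 16646 genes, 0 were called in this comparison at an adjusted p under 0.05 (0% higher, 0% lower), while 1905 (11.4%) had an unadjusted p under 0.05 by edgeR. DESeq2's Wald test called 183 genes and edgeR's exact test on the 6 libraries compared 124. The SD of Atrip between SN-011 libraries was 0.655% of their mean, below the 3.94% that counting error alone gives at this depth, so the agreement of these 3 libraries is closer than their counts can resolve.

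Shisa5 showed another order. Its counts were 2736, 3254 and 2838 in WT, 2114, 2431 and 1932 with PBS, and 1371, 2045 and 1522 with SN-011. These are 129, 147 and 164 CPM in WT, 129, 142 and 120 CPM with PBS, and 77.7, 119 and 90.3 CPM with SN-011. The WT and PBS libraries overlapped, and each SN-011 library was below every library of the other groups, replicate 2 by the least. The means were 147 ± 17.6, 130 ± 11 and 95.5 ± 20.9 CPM (SD, n = 3 each).

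Shisa5 differed from WT by -0.17 on the log2 scale with PBS (SE 0.152) and by -0.62 with SN-011 (SE 0.153), where WT was 1.54-fold the SN-011 level. Groups did not overlap in the lower direction for 9.99% of genes in SN-011 against WT. In SN-011 against PBS the difference was -0.45 (SE 0.153, 95% interval -0.79 to -0.11), with an unadjusted p of 0.0147 and an edgeR adjusted p of 0.316, which did not pass the test. It passed when SN-011 replicate 2 was left out (-0.64, edgeR adjusted p 0.0288), where 519 of 17014 genes (3.05%) were called, and no other library moved it past the threshold. That library is the one with Y-linked reads among the SN-011 libraries, and without it the drug and the Y-linked reads cannot be told apart. With a term for Y-linked reads the difference was -0.22 (edgeR adjusted p 0.620).

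Per kb of unshared exon, Shisa5 was the higher of the pair in each group. Its level was 44.5 ± 5.34 CPM per kb in WT, 39.5 ± 3.34 with PBS and 29.0 ± 6.34 with SN-011. Atrip on the same scale was at 2.54 to 7.52 CPM per kb, as given above.

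The ratio of the neighbours within a library needs no scaling between libraries. Per 100 Shisa5 pairs, Atrip had 12.5, 10.4 and 8.77 pairs in WT, 36.2, 34.1 and 33.5 with PBS, and 47.8, 31.7 and 41.1 with SN-011. The knockout libraries were all above WT, and the PBS range lay inside that of SN-011. The means were 10.6 ± 1.85, 34.6 ± 1.41 and 40.2 ± 8.08 (SD, n = 3 each). Against Atr, the gene of its partner kinase, Atrip had 92.7, 88.3 and 69.2 pairs per 100 Atr pairs in WT, 255, 218 and 210 with PBS, and 185, 182 and 185 with SN-011. By this ratio the 3 groups were separate, with means of 83.4 ± 12.5, 228 ± 24.1 and 184 ± 2.08.

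**Figure D4:**
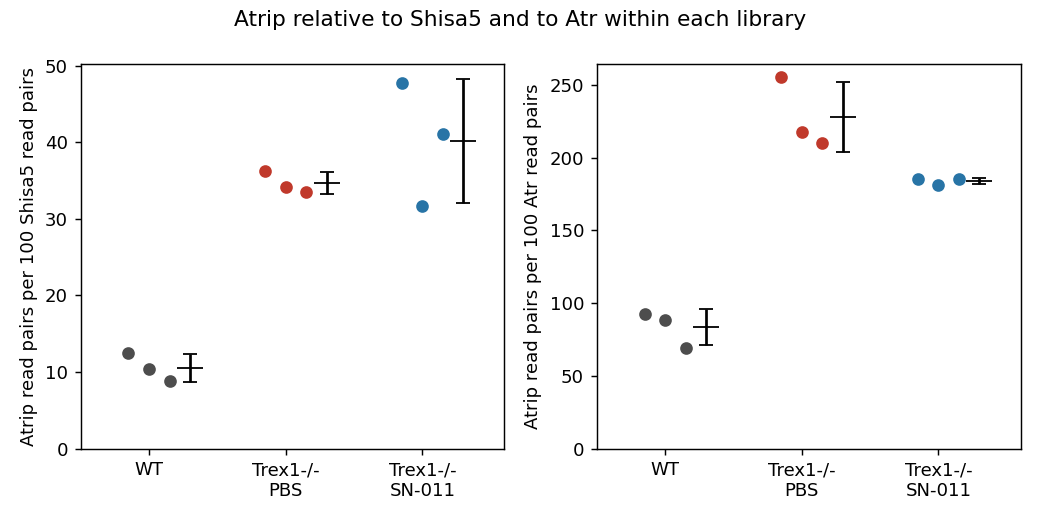
Atrip read pairs per 100 Shisa5 pairs (left) and per 100 Atr pairs (right) in each library (points), with the group mean and SD beside them. WT is lowest in both panels, while the SN-011 libraries spread from 31.7 to 47.8 against Shisa5 and sit within 182 to 185 against Atr.

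Within the libraries above 10 CPM of Y-linked reads, Atrip was at 14.4 CPM in the single WT library, 40.3 to 48.5 CPM in the 3 with PBS and 37.6 CPM in the single one with SN-011. Within the low libraries, Atrip was at 15.4 to 16.1 CPM in 2 WT libraries and 37.1 to 37.2 CPM in 2 with SN-011, and PBS had none. Shisa5 was higher in the library with Y-linked reads within both groups that hold both kinds, at 164 against 129 to 147 CPM in WT and at 119 against 77.7 to 90.3 CPM with SN-011. With a term for Y-linked reads in the fit, the Atrip differences were 1.59, -0.31 and 1.29 on the log2 scale for PBS against WT, SN-011 against PBS and SN-011 against WT. Those of Shisa5 were -0.42, -0.22 and -0.63. Without the term Shisa5 was at -0.17 in the first comparison and -0.45 in the second, so the term made the first difference larger and the second smaller (SE 0.125 for each with the term). Without WT replicate 3, Atrip was at 1.52 and Shisa5 at -0.086 in PBS against WT, and they were at 1.24 and -0.54 in SN-011 against WT. Without SN-011 replicate 2, the latter comparison gave 1.27 and -0.81.

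Sums of cell type markers differed between groups as well. All 7 epithelial markers, among them Umod, Slc34a1 and Aqp2, had reads in every library, and their sum was 17357 to 19084 CPM in WT, 15764 to 16666 with PBS and 16513 to 16891 with SN-011. The 7 immune markers, all with reads in every library, summed to 113 to 123 CPM in WT, 166 to 189 with PBS and 102 to 156 with SN-011. The 4 markers of dividing cells summed to 7.07 to 26.2 CPM in WT, 35.0 to 47.4 with PBS and 4.02 to 46.5 with SN-011. The 3 endothelial markers summed to 271 to 299 CPM in WT, 285 to 298 with PBS and 240 to 309 with SN-011. The 3 adipose markers summed to 113 to 253 CPM in WT, 82.4 to 140 with PBS and 89.0 to 112 with SN-011. In the epithelial and the adipose sums every SN-011 library was below every WT library, as for Shisa5 and for 9.99% of genes. The adipose sums were separate by little, and Adipoq, Plin1 and Fabp4 taken singly each overlapped between WT and SN-011. The part of these cell types in the values of Atrip and Shisa5 was not tested.

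The wider region was described next. Within 100 kb of Trex1 the annotation lists 13 genes, of which 8 passed the filter, 6 of them besides Atrip and Shisa5. These 6 are Col7a1 (type VII collagen), Pfkfb4 (a regulator of glycolysis), Tma7, Ccdc51, the antisense gene Gm7628 and Plxnb1 (a semaphorin receptor), and 0 of them were called by the quasi-likelihood test in PBS against WT, SN-011 against PBS or SN-011 against WT, where 1.88%, 0% and 1.28% of all genes were. In PBS against WT, 1 of the 6 (Plxnb1) had an unadjusted p under 0.05, beside 15.2% of all genes, and in the other comparisons 0 did, beside 11.4% and 18%. A count of 0 among 6 is near these shares. Against WT their log2 fold changes ran from -0.50 to 0.058 with PBS and from -0.42 to 0.56 with SN-011, and between SN-011 and PBS from -0.24 to 0.78. Tma7, the next gene upstream of Atrip, was at 54.0 ± 1.88, 56.2 ± 8.74 and 55.2 ± 3.06 CPM in WT, PBS and SN-011 (SD, n = 3 each), with overlapping groups. Plxnb1 was at 91.3 ± 10.8 CPM in WT and 64.4 ± 7.92 with PBS, a difference of -0.50 (SE 0.132, edgeR adjusted p 0.0979), and it was called in 5 of 18 alternatives, among them DESeq2's Wald test and leaving out SN-011 replicate 2. With the Y-linked term it was at -0.30 (edgeR adjusted p 0.402). Its groups were without overlap, as were 12.3% of all genes in the lower direction. Gm7628, at 1.35 CPM or less in each group mean, was the one neighbour without overlap between SN-011 and PBS, as for 7.74% of genes in the higher direction, and its body overlaps that of Plxnb1 on the other strand, whose reads these counts may not keep apart from its own.

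Genes that work with ATRIP did not pass the quasi-likelihood test. In the ATR checkpoint list of 15 genes (Atr, the other ATR activators Topbp1 and Etaa1, the 9-1-1 clamp with its loader and Rhno1, claspin, Chek1, Timeless, Tipin and replication protein A), all 15 were tested and 0 were called in PBS against WT, where 313 of 16646 genes (1.88%) were. Of the 15, 1 had an unadjusted p under 0.05, against 15.2% of all genes, and 5 did not overlap, against 25.4%. By edgeR's exact test on the 6 libraries compared, 1 of the 15 was called, beside 8.3% of all genes. Their median difference was 0.14 on the log2 scale with 14 of 15 above 0, beside 0.0028 for all genes. Clspn, the adaptor that lets ATR phosphorylate CHK1, had the largest value (1.76, SE 0.668, edgeR adjusted p 0.249), at 0.602 CPM in WT and 1.99 CPM with PBS. The summed markers of dividing cells were at 13.6 ± 10.9 CPM in WT and 39.7 ± 6.72 with PBS (SD, n = 3 each), and their part in the values of this list was not tested. Atr itself was at 18.5 ± 2.00, 19.9 ± 2.09 and 20.3 ± 0.364 CPM in WT, PBS and SN-011 (SD, n = 3 each), with overlapping groups and edgeR adjusted p of 0.707 (PBS against WT), 0.945 (SN-011 against PBS) and 0.589 (SN-011 against WT). For the list, 0 were called in SN-011 against PBS, as 0% of all genes were (median -0.12, 1 with an unadjusted p under 0.05 beside 11.4% of all genes, 2 without overlap beside 16.1% of all genes) and 0 in SN-011 against WT, where 1.28% of all genes were (median 0.083, 0 with an unadjusted p under 0.05 beside 18% of all genes, 0 without overlap beside 21.7%).

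The genes grouped with TREX1 by disease or by function include 3 that rose with PBS. The list holds other Aicardi-Goutieres genes, Trex2 and partners of TREX1 in the SET complex, and 12 of its 13 members were tested, since Trex2 had 1 read. In PBS against WT, 3 were called higher (1.44% of all genes were) and 0 lower (0.439%), with a list median of 0.17 on the log2 scale. They are Ifih1, the double-stranded RNA sensor MDA5, which rose from 18.2 ± 1.08 to 56.6 ± 9.16 CPM (1.63, edgeR adjusted p 3.34e-04), Adar, which edits adenosine in double-stranded RNA and rose from 31.5 ± 0.831 to 66.6 ± 13.3 CPM (1.08, edgeR adjusted p 0.00141), and Samhd1, a dNTP hydrolase, which rose from 43.6 ± 2.48 to 81.1 ± 4.74 CPM (0.90, edgeR adjusted p 0.00153). All 3 are known interferon-induced genes. The summed immune markers were at 120 ± 5.32, 177 ± 11.4 and 128 ± 27.3 CPM in WT, PBS and SN-011 libraries (SD, n = 3 each), and their part in the values of these genes was not tested.

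With SN-011, Ifih1 was at 36.4 ± 6.10 CPM, Adar at 52.1 ± 1.76 and Samhd1 at 60.3 ± 8.24 (SD, n = 3 each). In SN-011 against WT, 2 of the 12 were called higher (0.823% of all genes were) and 0 lower (0.457%), in a comparison where 1.28% of genes were called. These were Ifih1 (0.999, edgeR adjusted p 0.0137) and Adar (0.73, edgeR adjusted p 0.0268), while Samhd1 was at 0.47 with an edgeR adjusted p of 0.0675. Samhd1 was called in 4 of 18 alternatives, among them the Y-linked term (edgeR adjusted p 0.0355). Without WT replicate 1 or 2, Ifih1 was not called (largest edgeR adjusted p 0.0727), and Adar was not called without any one of WT replicates 1, 2 and 3, PBS replicate 1 or SN-011 replicate 1 (largest edgeR adjusted p 0.117). In SN-011 against PBS 0 of the 12 were called by edgeR (0% of all genes were), and 3 had an unadjusted p under 0.05, beside 11.4% of all genes. Ifih1 was called by DESeq2's Wald test (1.1% of all genes were), by edgeR without SN-011 replicate 2 (3.05%) and by edgeR with no filter beyond 1 read (127 of 30892 genes were). The differences were -0.64 for Ifih1 (edgeR adjusted p 0.210), -0.43 for Samhd1 (0.241) and -0.35 for Adar (0.329). Whether the -0.28 of Atrip differs from these was not tested.

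Of 10 other genes of the Shisa family, 5 were tested and 0 were called in any comparison by edgeR's quasi-likelihood test, where 1.88% (PBS against WT), 0% (SN-011 against PBS) and 1.28% (SN-011 against WT) of all genes were. In PBS against WT, edgeR's exact test on the 6 libraries compared called 2, both lower, and 8.3% of all genes. The list medians were -0.22, -0.029 and -0.49 on the log2 scale in PBS against WT, SN-011 against PBS and SN-011 against WT. In the first of these, 2 of the 5 had an unadjusted p under 0.05, beside 15.2% of all genes, Shisa7 (-0.77, edgeR adjusted p 0.291) and Shisal1 (-1.28, edgeR adjusted p 0.132).

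**Figure D5:**
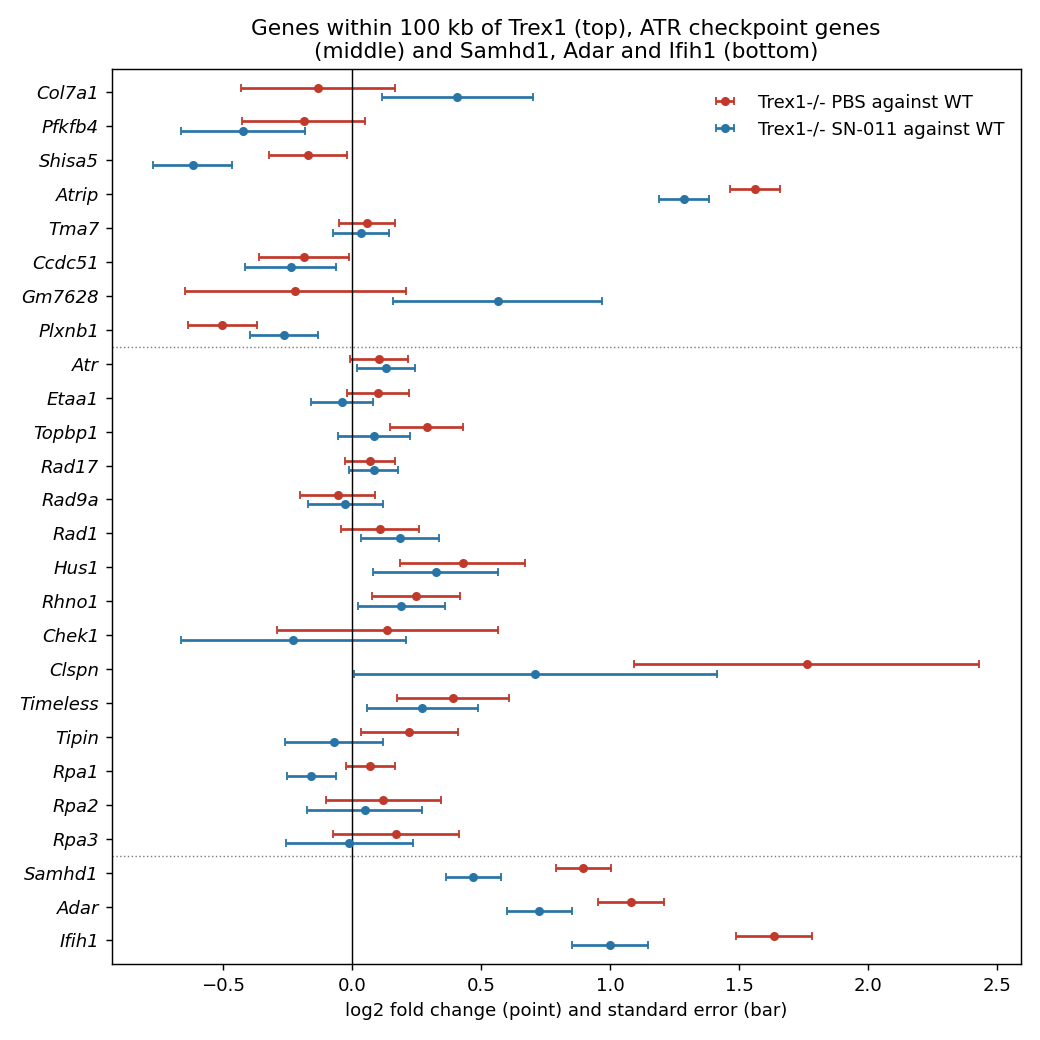
Log2 fold change against WT (points) with its SE (bars) for Trex1-/- with PBS and with SN-011, for the 8 tested genes within 100 kb of Trex1 (top), the 15 ATR checkpoint genes (middle) and Samhd1, Adar and Ifih1 (bottom). Atrip lies at 1.56 and 1.29, its neighbours lie between -0.62 and 0.56, and Atr is at 0.10 and 0.13.

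The genes whose levels ran most like Atrip over the 9 libraries were found by Pearson's r of log2 CPM among 14841 genes with a mean of at least 1 CPM. They were Oas2 (r = 0.988), Apol9a (0.987), Gm15610 (0.985), Zc3hav1 (0.978) and Tlr2 (0.974), and 41 genes had r above 0.95. OAS2 makes the messenger that activates RNase L, ZC3HAV1 binds viral RNA for decay and TLR2 is a receptor for bacterial lipoproteins. Their group means kept the order WT, SN-011, PBS, at 6.58, 43.7 and 60.3 CPM for Oas2, 24.7, 44.5 and 58.7 for Zc3hav1 and 3.93, 6.68 and 8.01 for Tlr2. By Spearman's rank correlation the leading genes were Herc6, Spn and Il18bp, each at 1. All such values rest on 9 points in 3 groups and so carry the group means. They follow values by which Atrip was chosen and are given with no test. Against Atr and Shisa5, Atrip had r = 0.453 and -0.477.

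The genes most like Shisa5 by the same measure were 2310022B05Rik (r = 0.968), Mgat3 (0.965), Crat (0.958), Tmem19 (0.956) and Mchr1 (0.955), with 6 genes above 0.95. MGAT3 is a glycosyltransferase that makes bisected N-glycans and CRAT is carnitine acetyltransferase. Their group means went from highest to lowest in the order WT, PBS, SN-011, for instance 146, 136 and 114 CPM for Mgat3 and 186, 175 and 157 CPM for Crat. None of the 5 genes most like Shisa5 was among the 5 most like Atrip.

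The start regions of the 3 genes were searched for motifs because the genes most like Atrip include interferon-induced ones. In RefSeq start windows on GRCm38.p6, 250 bases before to 50 after a start, the 3 genes had 8 windows, 1 for Atrip, 2 for Trex1 and 5 for Shisa5. The letters searched on both strands were GAAA, any 2 bases and GAAA again, a form of the interferon-stimulated response element, present in 3.44% of 32851 windows, TTCNNNGAA, a gamma-activated site, in 8.30%, and TATAAA in 13.6%. The Atrip window held none of them. It is rich in CG, with 26 CG pairs and 65.0% G and C, beside medians of 7 and 52.7% over all windows, and lies at chr9:109074075-109074374 on the minus strand.
Atrip: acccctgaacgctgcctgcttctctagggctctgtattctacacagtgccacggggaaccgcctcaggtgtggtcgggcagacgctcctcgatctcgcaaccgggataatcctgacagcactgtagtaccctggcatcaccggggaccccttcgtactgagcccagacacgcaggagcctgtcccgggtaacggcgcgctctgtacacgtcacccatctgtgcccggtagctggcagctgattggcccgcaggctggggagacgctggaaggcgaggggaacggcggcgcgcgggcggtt
One window of the 8 had a match, at the most internal Shisa5 start, chr9:109054616-109054915 on the plus strand. There the first motif, as its reverse complement, lies 33 to 42 bases after the start and the second lies 40 to 48 bases after it, so that they overlap. Capitals mark both.
Shisa5: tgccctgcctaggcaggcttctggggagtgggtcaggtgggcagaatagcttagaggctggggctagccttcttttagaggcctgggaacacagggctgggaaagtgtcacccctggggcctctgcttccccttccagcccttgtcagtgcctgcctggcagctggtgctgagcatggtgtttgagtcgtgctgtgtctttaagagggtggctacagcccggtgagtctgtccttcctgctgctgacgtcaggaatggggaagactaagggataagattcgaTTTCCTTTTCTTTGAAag
The window of the first Shisa5 start, with 13 CG pairs, held no match. A match is a description of letters and not a binding site, and reads of the Shisa5 starts were not counted apart.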

How the data were processed

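RNA of 9 kidney libraries (3 WT, 3 Trex1-/- PBS, 3 Trex1-/- SN-011) was sequenced. Per the submitters' notes and the study's methods, the authors trimmed reads with Trimmomatic, aligned them to mm10 with HISAT2 and deposited raw counts of uniquely mapped pairs per gene from featureCounts. Tool versions, annotation release and the strand setting of counting were not given in the sources used here. If shared bases or strands were treated otherwise, the values of overlapping genes would change. Knockout titles do not name PBS, which comes from the series' design text.

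Of 54532 gene identifiers, 54495 matched GENCODE vM21 (GRCm38) on its primary assembly and 37 did not. The analysis used edgeR 4.0.16 (R 4.3.3) with filterByExpr (minimum 10, total 15), TMM scaling and 1 quasi-likelihood fit of all 9 libraries with no covariate, tested by the quasi-likelihood F test with Benjamini-Hochberg adjustment over 16646 genes and a threshold of 0.05. The study's own methods name edgeR's negative binomial test with TMM, which stands here as an alternative. SEs were computed from log2 fold changes and their F statistics. Likeness used log2 CPM with a prior count of 2. Steps were tested on simulated data. Alternatives used DESeq2 1.42.0, other scalings, filters and tests, the 6 libraries compared alone, a replicate block, a Y-linked term and each library left out.

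The members and gene lists were chosen with earlier results of these data known. Named genes were the 3 members, tested genes within 100 kb, Atr, list members called in any comparison and the 5 genes most like each member. Clspn, Shisa7, Shisal1 and the rank-correlation leaders were named after their values were seen. Promoters and the lists of markers came from RefSeq tables and textbook knowledge.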

Additional observations from a re-analysis of the deposited data

How the results depend on the processing

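The Atrip values kept their direction and size in all 18 alternatives of each comparison, from 1.50 to 1.63 on the log2 scale for PBS against WT, 1.24 to 1.32 for SN-011 against WT and -0.35 to -0.21 for SN-011 against PBS, where edgeR or DESeq2 adjusted p ran from 0.167 to 0.699. Shisa5 in PBS against WT moved from -0.17 to -0.42 with the Y-linked term. In SN-011 against PBS it ran from -0.64 to -0.32 with single libraries left out and was -0.22 with the Y-linked term, with adjusted p from 0.0288 (without SN-011 replicate 2) to 0.680.

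Counts of called genes moved more. PBS against WT gave 313, and 707 with no filter, 726 by DESeq2's Wald test, 1342 by edgeR's exact test (run on the 6 libraries compared), 751 with its 6 libraries alone, 198 with the Y-linked term and 153 to 774 with single libraries left out. SN-011 against PBS gave 0, and 127, 183 and 124 by the first 3 of these, and 0 to 519 with single libraries left out (519 without SN-011 replicate 2). SN-011 against WT gave 213, and 607, 816, 378, 43, 656 and 38 to 376 in that order. The causes were not tested. With genes sharing at least 90% of their bases, 91.7% (same strand) and 93.5% (opposite strand) were at 0, and 71.3% and 82.1% of protein-coding genes.

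Replicate numbers did not pair the libraries, since correlations of same-numbered deviations ran from -0.294 to 0.242. With a replicate block the called genes numbered 312, 0 and 231, and Atrip differed by 1.56, -0.27 and 1.29. Among genes with at least 5 CPM, Oas1a (r = 0.972) took the place of Gm15610 near Atrip.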
